A study of Homo sapiens with 9 samples.

Results

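Claudins, desmosomal genes and connexins build the tight junctions, desmosomes and gap junctions of epithelial cells, and their mRNAs were examined in OVCAR3 cells with and without knockdown of GPX3. The set was every protein-coding gene of the count table named CLDN plus a digit (CLDN3 and CLDN4 were left out), DSG1 to DSG4, DSC1 to DSC3, PKP1 to PKP4, or GJA, GJB or GJC plus a digit. It held 51 of 58735 genes: 22 claudins, 11 desmosomal genes and 18 connexins, among them the read-through locus GJA9-MYCBP. OVCAR3 is an established human ovarian carcinoma cell line. The cells carried either a scramble control hairpin or a short hairpin RNA against GPX3, hairpin 76 (sh76) or hairpin 78 (sh78), and RNA was sequenced after 72 h in culture, in 3 libraries per group. The medium of all groups held serum and bovine insulin. GPX3 encodes a secreted glutathione peroxidase. The labels give the scramble cells as wild type and do not say whether replicates came from separate transductions, so p-values measure only the spread between these libraries, which may be technical.

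Claudins are tetraspan proteins that polymerise into tight junction strands, where some seal the space between cells and others form pores for ions. Desmosomes anchor keratin filaments: the cadherins desmoglein (DSG) and desmocollin (DSC) join neighbouring cells, and plakophilins (PKP) are armadillo proteins of the plaque beneath them. Connexins assemble into hexameric hemichannels that dock between cells and pass ions and small metabolites. In carcinomas of the ovary several claudins are well-known surface markers.

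In the test without a replicate block, 2 of the 27 tested genes were called with sh76, 4 with sh78 and 4 between the hairpins. Of all genes tested, 3.58%, 4.41% and 3.7% were called. None of the 27 was called with both hairpins, and the share of all genes called with both was not counted. With sh76, CLDN6 and CLDN12 fell. With sh78, the connexin gene GJB5 and the claudin gene CLDN16 fell, and the connexin gene GJA1 rose. No desmosomal gene of the 7 tested was called with either hairpin in that test, where 3.58% and 4.41% of all genes were called. GJB5, GJA1 and CLDN6 also differed between the hairpins when sh78 was tested against sh76 itself. With the replicate number fitted as a block, calls were 6 of 27 with sh76, 13 with sh78 and 12 between the hairpins. That fit called 20.4%, 19.9% and 18.3% of all genes. It called GJA1, GJB2 and CLDN16 with both hairpins, each in the same direction. The share of all genes called in this way was not counted. The comparisons share their control libraries, so nothing particular to the set is read from this overlap. The fit with the block also called 5 of the 7 tested desmosomal genes with sh78, 4 lower and 1 higher. Of all 17023 genes tested, it called 1722 lower and 1666 higher with sh78.

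Libraries held 14652965 to 21327562 counts. GPX3 ran from 109 to 173 CPM (counts scaled to library size with TMM factors) with scramble, from 55.2 to 56.8 CPM with sh76 and from 28.3 to 35.3 CPM with sh78, so the groups did not overlap. The 8 ovarian carcinoma and epithelial markers checked (PAX8, WT1, MUC16, EPCAM, KRT7, KRT8, KRT18 and KRT19) were all present, with a summed level of 12900 to 13800 CPM with scramble, 12200 to 13400 CPM with sh76 and 10600 to 11400 CPM with sh78. With sh78, 4 of these genes were called, all lower, where 4.41% of all genes were called and 2.56% were called lower. Of the 8, 3 had a positive log2 fold change with sh78. KRT8 and KRT18, keratin genes whose annotated spans overlap, averaged 5560 and 2180 CPM with scramble and 3880 and 1580 CPM with sh78. KRT19 (1590 and 1280 CPM) and EPCAM (317 and 252 CPM) were the other two called. PAX8 (902 and 960 CPM), MUC16 (1550 and 1620 CPM) and KRT7 (1290 and 1430 CPM) had higher averages with sh78 and were not called. WT1 (108 and 80.6 CPM) had a lower average and was not called. With sh76, 2 of the 8 genes were called, where 3.58% of all genes were called. KRT19 was higher with sh76 (log2 fold change 0.36, adjusted p by edgeR 0.0177) and PAX8 lower (−0.28, adjusted p by edgeR 0.0196). The part of these genes in the results below was not tested. Lists of 5 fibroblast, 5 leukocyte and 5 endothelial markers summed to 27.5 to 52.6, 2.25 to 4.85 and 18.4 to 32.2 CPM over the 9 libraries. COL1A1 (25.5 to 44.5 CPM) made up most of the fibroblast sums. In sh76 replicate 2, COL1A2 had 142 counts, DCN 11 and LUM 3, against 19 to 51, 0 to 3 and 0 in the other libraries. PDGFRB had 10 counts there and 0 to 17 in the others. The source of these counts was not tested. No gene of these lists was at 0 in all libraries. Endothelial sums were 18.4 to 20.4 CPM with scramble and 23.7 to 32.2 CPM with sh78. KDR averaged 9.39, 13.7 and 18.8 CPM with scramble, sh76 and sh78 and was called with both hairpins (adjusted p by edgeR 0.0396 and 0.00087). VWF (8.25, 7.27 and 7.95 CPM), TEK (0.877, 0.375 and 0.417 CPM) and CDH5 (0.399, 0.408 and 0.816 CPM) were not called, and PECAM1, at most 0.36 CPM on average, was not tested. The part of the endothelial genes in the results was not tested. In bulk RNA, fewer cells of a type and less RNA per cell cannot be told apart.

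Of the 51 genes, 27 passed the filter on low counts: 10 claudins, 7 desmosomal genes and 10 connexins. A gene of the 24 that did not pass had at most 16 counts in any library. Those with a count included CLDN2, CLDN5, CLDN8, CLDN14, CLDN18, CLDN20, CLDN24, CLDN34, GJA9, GJB1, GJC3, DSG1, DSG3 and PKP1. CLDN17, CLDN19, CLDN25, GJA4, GJA10 and DSG4 had 0 counts in all 9 libraries, which allows up to 3 counts, or 0.143 to 0.206 CPM, per library (counting error only). CLDN22 and GJA9-MYCBP also had 0 counts, but share exon bases with other genes, so a 0 sets no such limit on their level. Of the exon bases of GJA9-MYCBP, 58.4% are shared with GJA9 and 30.1% with MYCBP (338 to 509 counts) on the same strand. All of the exon bases of CLDN22 (100%) lie under exons of WWC2 on the opposite strand, which had 1440 to 2076 counts. The libraries carry no strand, so reads of the pair cannot be told apart. PKP1, a plakophilin of stratified epithelium, had 5, 3 and 3 counts with scramble, 6, 11 and 16 with sh76 and 1, 2 and 7 with sh78.

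Levels between genes are compared in FPKM, the deposited counts per kilobase of gene length, scaled to library size. Over all libraries, and among the claudins of the set, which leaves out CLDN3 and CLDN4, CLDN7 had the highest mean level (46.6 FPKM), ahead of CLDN6 (38.1), CLDN1 (22) and CLDN16 (15.4). DSG2 (32.7 FPKM), PKP3 (31.2) and DSC2 (18.7) led the desmosomal genes, and GJA1 (30.1 FPKM), GJB2 (21.8) and GJC1 (6.13) led the connexins. DSG2 and DSC2 are the desmosomal cadherins of simple epithelia. The desmocollins of stratified epithelia were lower, DSC3 at 3.88 FPKM and DSC1 at 0.869 FPKM, and DSG1 and DSG3 had at most 3 counts in a library.

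**Figure D1:**
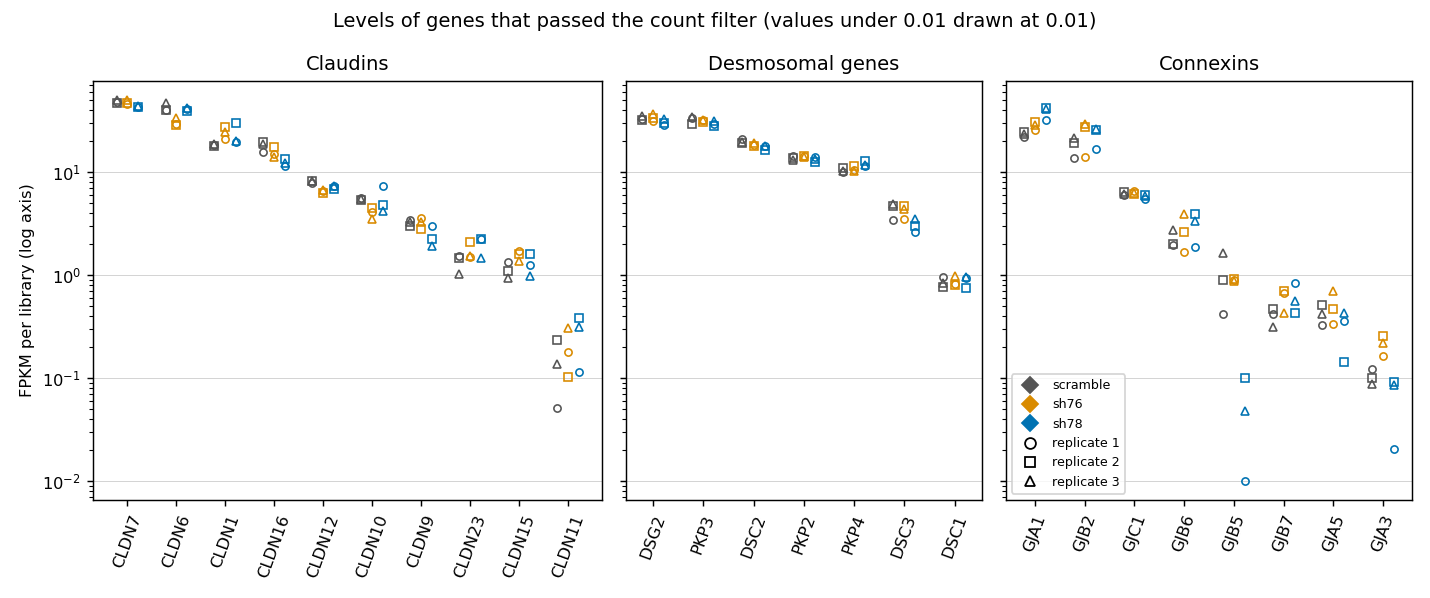
FPKM on a log axis (vertical) of 25 of the 27 genes that passed the count filter, in panels for claudins, desmosomal genes and connexins, with 1 symbol per library, colour for the group and shape for the replicate number. Mean levels span 46.6 FPKM (CLDN7) to 0.128 FPKM (GJA3), a value of 0 is drawn at the axis floor, and the sh78 symbols of GJB5 lie below all others of that gene.

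Sequences are shown from the start regions of some changed genes with an entry in the RefSeq promoter table (GRCh38.p14), which held windows for 33 of the 51 genes. For GJA1 and CLDN6 the stretches were chosen around a motif match, and no stretch of CLDN12 is shown. GJB5 had no entry. CLDN1 and CLDN16 are shown because their annotated starts face each other, 65 bases apart, and CLDN16 fell with sh78. The stretch between them, chr3:190322476-190322540, is printed on the CLDN1 (minus) strand, and capitals mark GC boxes (GGGCGG or CCGCCC on the printed strand, that is the box on either strand). For GJA1, which rose with sh78, 30 bases at chr6:121435587-121435616 (plus strand) are shown, with an AP-1 site (TGAGTCA or TGACTCA, each the reverse complement of the other) in capitals that begins 48 bases before the RefSeq start. For CLDN6, which fell with sh76, 30 bases at chr16:3018212-3018241 (minus strand) are shown, with a cyclic AMP response element (TGACGTCA, its own reverse complement) in capitals that begins 47 bases before the RefSeq start. All bases of both 30-base stretches lie in exons that GENCODE 29 annotates, and the gene of those exons was not read. Each stretch lies within the annotated span of its own gene.
CLDN1 to CLDN16: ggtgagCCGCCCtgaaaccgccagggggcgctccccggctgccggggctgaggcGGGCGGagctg
GJA1: ctcctcccagtTGAGTCAgtggcttgaaac
CLDN6: cggtggtccagTGACGTCAccgcttcttta
Over the 35116 windows of the table, the AP-1 letters were found in 4.95%, the cyclic AMP element in 1.85% and a GC box in 45%. The counts in the 44 windows of these genes were 2, 2 and 17. A match is only a match of letters, and the marked motifs do not overlap each other.

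Each hairpin was compared with scramble, and the hairpins with each other. The comparisons against scramble share their control libraries. Tests were edgeR quasi-likelihood tests over 17023 genes, and a gene was called at a Benjamini-Hochberg adjusted p under 0.05. With sh76, 2 of these genes were called, both lower, where 3.58% of all genes tested were called (1.43% higher, 2.16% lower). In the sh78 comparison 4 were called, 1 higher and 3 lower, where 4.41% of all genes were called (1.85% higher, 2.56% lower). For sh78 against sh76, 4 were called, 2 higher and 2 lower, against 3.7% of all genes (1.97% higher and 1.72% lower). Of 27 tested, these counts are small, and nothing particular to the set is read from them. The median log2 fold change of the 27 genes was 0.05, −0.05 and −0.09 in these comparisons, against 0.01, 0.01 and 0 over all genes.

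Same-numbered replicates deviated together across genes, so the replicate number was also fitted as a block. With the block, 6 of these genes were called with sh76, 13 with sh78 and 12 between the hairpins, where 20.4%, 19.9% and 18.3% of all genes were called. Each of the calls made without the block (2, 4 and 4) was also made with it. With the block, GJA1, GJB2 and CLDN16 (3 genes) were called with both hairpins in the same direction. The share of all genes called in this way was not counted, so nothing particular to the set is read from this overlap. Other calls that the block added are given with the genes.

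**Figure D2:**
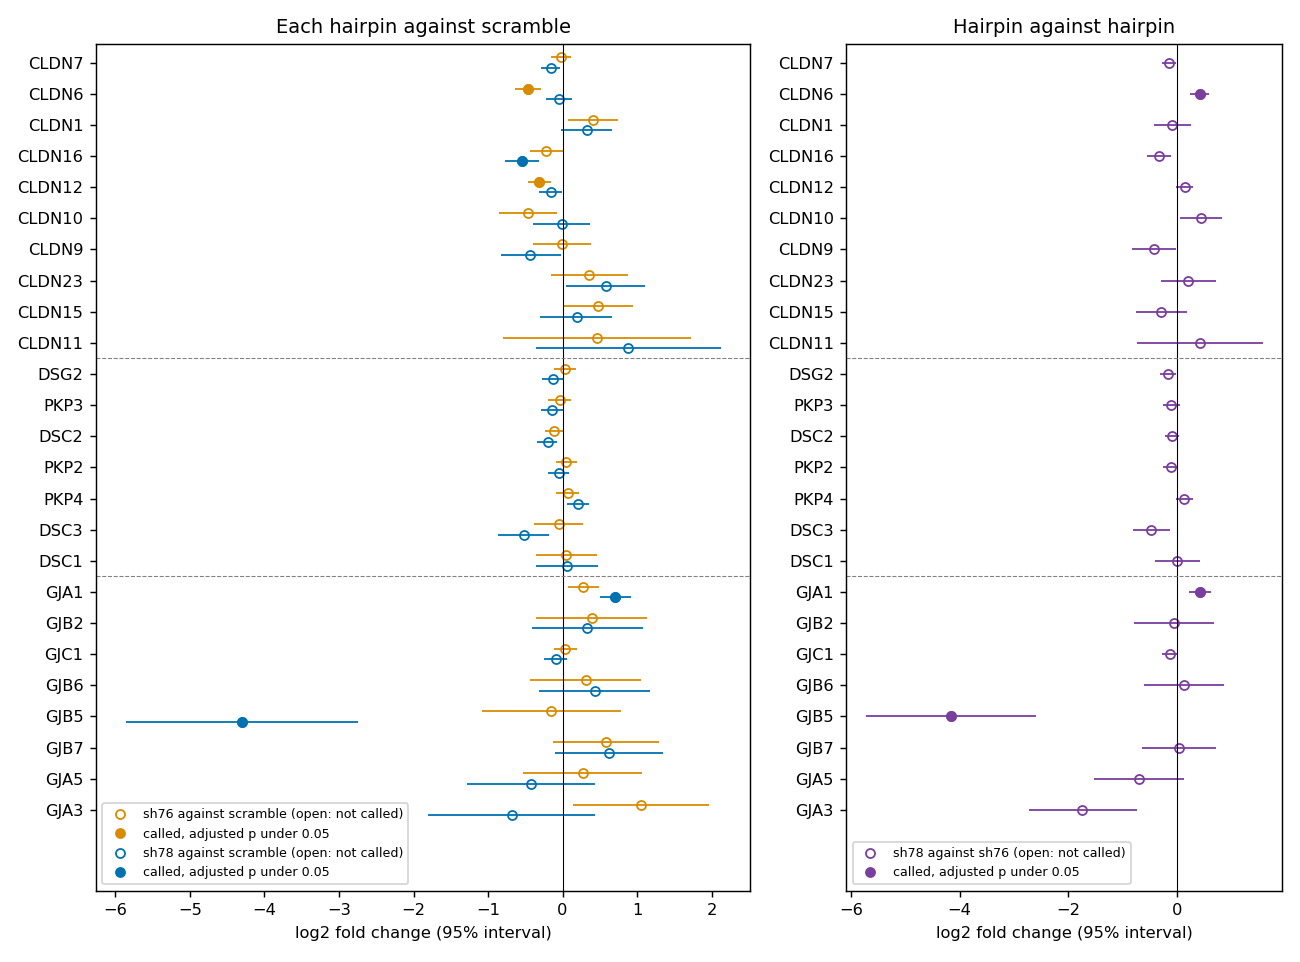
Log2 fold change with its 95% interval (horizontal) for 25 of the 27 tested genes, with claudins, desmosomal genes and connexins separated by dashed lines. Filled symbols passed the edgeR test without the block: CLDN6 and CLDN12 with sh76, GJB5, CLDN16 and GJA1 with sh78, and CLDN6, GJA1 and GJB5 between the hairpins.

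Among claudins, CLDN6 was lower with sh76 than in either other group. CLDN6 (ENSG00000184697, chr16:3014712-3020071, minus strand, GRCh38) encodes an oncofetal claudin that some ovarian carcinomas express. Its levels were 70.5, 71.4 and 81.2 CPM with scramble, 52.2, 50.5 and 58.6 CPM with sh76, and 71.9, 69.7 and 74.6 CPM with sh78. All 3 sh76 libraries lay below the other 6, and the sh78 libraries lay within the scramble range or just under it. The log2 fold change with sh76 was −0.47 (SE 0.08, adjusted p by edgeR 0.00577), a level of 72.4% relative to scramble, and it was negative in all 3 same-numbered pairs (−0.43, −0.50 and −0.47). With sh78 it was −0.05 (95% interval −0.22 to 0.13, adjusted p by edgeR 0.845). The difference between the hairpins was 0.42 (SE 0.08, adjusted p by edgeR 0.00983), and it was 0.38 (adjusted p by edgeR 0.0659) without sh76 replicate 2. Exons of CLDN6 and TNFRSF12A share 40 bases, or 2.3% of those of CLDN6.

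CLDN9 ends 206 bases from the end of CLDN6 on the opposite strand. It had 6.69 ± 0.493, 6.65 ± 0.797 and 4.94 ± 1.18 CPM in the scramble, sh76 and sh78 groups (SD, n = 3). Its log2 fold change was −0.01 with sh76 and −0.43 with sh78, neither of them called (adjusted p by edgeR 0.986 and 0.257). The block called CLDN9 with sh78 (adjusted p by edgeR 0.0407) and between the hairpins (adjusted p by edgeR 0.0465).

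CLDN12, a claudin without the PDZ-binding tail that most claudins share, was also lower with sh76. CLDN12 (ENSG00000157224, chr7:90383721-90513402, plus strand) had 53.2, 56.2 and 55.3 CPM with scramble, 45.2, 42.8 and 45.3 CPM with sh76 and 50.4, 46.9 and 50.2 CPM with sh78. The sh76 libraries were the 3 lowest and the scramble libraries the 3 highest. The log2 fold change with sh76 was −0.31 (SE 0.07, adjusted p by edgeR 0.0296), a level of 80.9% relative to scramble, and with sh78 it was −0.16 (adjusted p by edgeR 0.266). The difference between the hairpins was 0.15 (95% interval −0.01 to 0.30, adjusted p by edgeR 0.341). The sh76 call was lost when any of scramble replicates 2 and 3 or sh76 replicates 1 to 3 was left out (log2 fold change −0.33 to −0.28 over all 9 such fits). Exons of GTPBP10 and CDK14 share 5.1% and 3% of its exon bases.

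CLDN16 fell with sh78, while CLDN1, whose start faces it in the sequence above, was not called. CLDN16 encodes a claudin known for paracellular magnesium transport in the kidney. CLDN16 (ENSG00000113946, chr3:190322541-190412143, plus strand) had 56.8, 72 and 68.2 CPM with scramble, 54.5, 63.4 and 51.2 CPM with sh76, and 41.9, 48.6 and 44.6 CPM with sh78. The 3 sh78 libraries were the lowest of the 9, and the sh76 libraries overlapped those of scramble. The log2 fold change with sh78 was −0.55 (SE 0.10, adjusted p by edgeR 0.00808), a level of 68.5% relative to scramble, and the edgeR call was kept in every alternative run. With sh76 it was −0.22 (adjusted p by edgeR 0.289, and 0.0051 with the block). The difference between sh78 and sh76 was −0.32 (adjusted p by edgeR 0.113, and 0.000138 with the block).

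CLDN1 (ENSG00000163347, chr3:190305701-190322475, minus strand), a barrier-forming claudin, had 68.7, 66.4 and 69.2 CPM with scramble, 77.8, 102.9 and 90.5 CPM with sh76 and 73, 110.1 and 73.6 CPM with sh78. Each of the 6 hairpin libraries was above the scramble libraries, and replicate 2 was the highest of each hairpin group. The log2 fold changes were 0.41 and 0.33, neither of them called (adjusted p by edgeR 0.195 and 0.314). Without sh78 replicate 2, the sh78 value was 0.10 and the sh76 value of 0.40 was called. Without the low-count filter both were called (adjusted p by edgeR 0.00026 and 0.00713), and the block called neither (adjusted p by edgeR 0.143 and 0.255).

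CLDN7 (ENSG00000181885, chr17:7259903-7263983, minus strand), a claudin of simple epithelia, had 122 ± 3.67, 120 ± 5.85 and 109 ± 1.26 CPM in the scramble, sh76 and sh78 groups (SD, n = 3). Its values were 121.9, 118.3 and 125.6 CPM with scramble, 115.0, 119.5 and 126.6 CPM with sh76, and 108.2, 108.3 and 110.4 CPM with sh78. The sh78 libraries lay below all others, by a log2 fold change of −0.16 from scramble that was not called (95% interval −0.29 to −0.03, adjusted p by edgeR 0.17). The block called CLDN7 with sh78 (adjusted p by edgeR 0.00987) and between the hairpins (adjusted p by edgeR 0.0238).

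The other tested claudins ranged from 5.01 to 0.202 FPKM. CLDN10, which encodes a paracellular ion pore, had 18.9 ± 0.416, 13.7 ± 1.65 and 18.6 ± 5.94 CPM in the scramble, sh76 and sh78 groups (SD, n = 3). In the sh76 comparison its log2 fold change was −0.46 (adjusted p by edgeR 0.197, and 0.0145 with the block), and that between the hairpins was 0.45 (adjusted p by edgeR 0.232, and 0.0267 with the block). Exons of DZIP1 on the opposite strand cover 46.1% of the exon bases of CLDN10, so counts of the pair cannot be told apart there. CLDN23 was at 2.94 ± 0.607, 3.75 ± 0.738 and 4.36 ± 1.02 CPM, and only the block called it, with sh78 (log2 fold change 0.57, adjusted p by edgeR 0.0324). CLDN15, a pore-forming claudin of the gut, and CLDN11, known from myelin and Sertoli cells, were not called in any comparison with or without the block.

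Of the 7 desmosomal genes tested, 0 were called in any comparison by edgeR without the block. That test called 3.58%, 4.41% and 3.7% of all genes. At an unadjusted p under 0.05 there were 0 with sh76, 3 with sh78 and 2 between the hairpins, where 17.4%, 17.5% and 16.3% of all genes tested passed. The block called 0, 5 and 3, against the 20.4%, 19.9% and 18.3% of all genes given above. Their log2 fold changes ran from −0.11 to 0.07 with sh76 and from −0.52 to 0.21 with sh78.

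DSG2 (ENSG00000046604, chr18:31498043-31549008, plus strand) had 205.5, 203.6 and 217.8 CPM with scramble, 198.5, 212.4 and 227.9 CPM with sh76 and 178.9, 187.3 and 204.9 CPM with sh78. The groups overlapped. Log2 fold changes were 0.03 (95% interval −0.12 to 0.18) with sh76 and −0.13 (95% interval −0.28 to 0.01) with sh78. The block called DSG2 with sh78 (adjusted p by edgeR 0.0198) and between the hairpins (adjusted p by edgeR 0.00529).

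DSC2 (ENSG00000134755, chr18:31058840-31102522, minus strand), its desmocollin counterpart, had 268.6, 246.3 and 244.5 CPM with scramble, 233.5, 228.8 and 240.9 CPM with sh76 and 226, 207.5 and 225.5 CPM with sh78. Every hairpin library lay below every scramble library. The log2 fold changes were −0.11 with sh76 and −0.20 with sh78, not called (adjusted p by edgeR 0.378 and 0.0814), and the block called the latter (adjusted p by edgeR 0.000427).

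DSC3 had 24.4, 33.6 and 35.1 CPM with scramble, 25, 34 and 31 CPM with sh76, and 18.8, 21.1 and 25.2 CPM with sh78, and replicate 1 was the lowest of each group. With sh78 its log2 fold change was −0.52 (adjusted p by edgeR 0.0917). It was called with sh78 by the block (adjusted p by edgeR 6.03e-06), by DESeq2, without the low-count filter and without scramble replicate 1. The block also called DSC3 between the hairpins (log2 fold change −0.46, adjusted p by edgeR 3.1e-05). DSC1, beside DSC2 in the same chromosome 18 cluster, stayed at 3.65 to 3.79 CPM on average in the 3 groups.

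PKP3 (ENSG00000184363, chr11:392614-404908, plus strand), the plakophilin with the highest FPKM here, had 130, 112.8 and 129.9 CPM with scramble, 122.6, 117.3 and 122.2 CPM with sh76, and 111.5, 107 and 119.5 CPM with sh78. The groups overlapped. Its log2 fold changes were −0.04 and −0.14, of which only the block called the latter (adjusted p by edgeR 0.0303). PKP4, which binds cadherins of adherens junctions too, had 99.8 ± 4.7, 105 ± 6.2 and 115 ± 7.66 CPM in the scramble, sh76 and sh78 groups (SD, n = 3). Its sh78 log2 fold change of 0.21 (adjusted p by edgeR 0.128) was called with the block (adjusted p by edgeR 0.000891), as was the difference between the hairpins (adjusted p by edgeR 0.0255). PKP2, a plakophilin of simple epithelia and heart, was at 94.5 to 102 CPM on average and was called in no comparison with or without the block.

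GJB5 had the largest log2 fold change among the 27 tested genes. It encodes a connexin best known from the epidermis, and its counts were lower with sh78 than in either other group. GJB5 (ENSG00000189280, chr1:34755047-34758512, plus strand) had 9, 21 and 39 counts with scramble, 20, 26 and 25 with sh76, and 0, 2 and 1 with sh78. Together the sh78 libraries held 3 counts, against 69 with scramble and 71 with sh76. Relative to library size this was 4.48% of the scramble level (95% exact interval 0.902% to 13.7%) and 5.04% of the sh76 level (1.01% to 15.3%), intervals that cover counting error only. Both differences were called (adjusted p by edgeR 0.00361 and 0.00579) and kept in every alternative run. With sh76, GJB5 was at 89% of the scramble level (95% exact interval 63% to 126%), which edgeR did not call (adjusted p 0.908).

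GJA1, which encodes the most widely expressed connexin, rose with sh78. GJA1 (ENSG00000152661, chr6:121435577-121449727, plus strand), whose AP-1 letters are printed above, had 76.4, 85 and 80.8 CPM with scramble, 89.5, 106.4 and 98.5 CPM with sh76, and 110.6, 143.4 and 141.9 CPM with sh78. The 3 groups did not overlap, with scramble lowest and sh78 highest. Replicate 1 was the lowest library of each group. The log2 fold change with sh78 was 0.71 (SE 0.10, adjusted p by edgeR 0.00112), or 163% of scramble, and the call was kept in every alternative run. With sh76 it was 0.28 (95% interval 0.07 to 0.49, adjusted p by edgeR 0.142), and the block called it (adjusted p by edgeR 6.54e-05). Between the hairpins it was 0.43 (SE 0.10, adjusted p by edgeR 0.0278), and that call was lost when sh76 replicate 1 or 3 or sh78 replicate 2 or 3 was left out and on log2 FPKM (log2 fold change 0.36 to 0.54 over the 9 fits that left out a library).

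**Figure D3:**
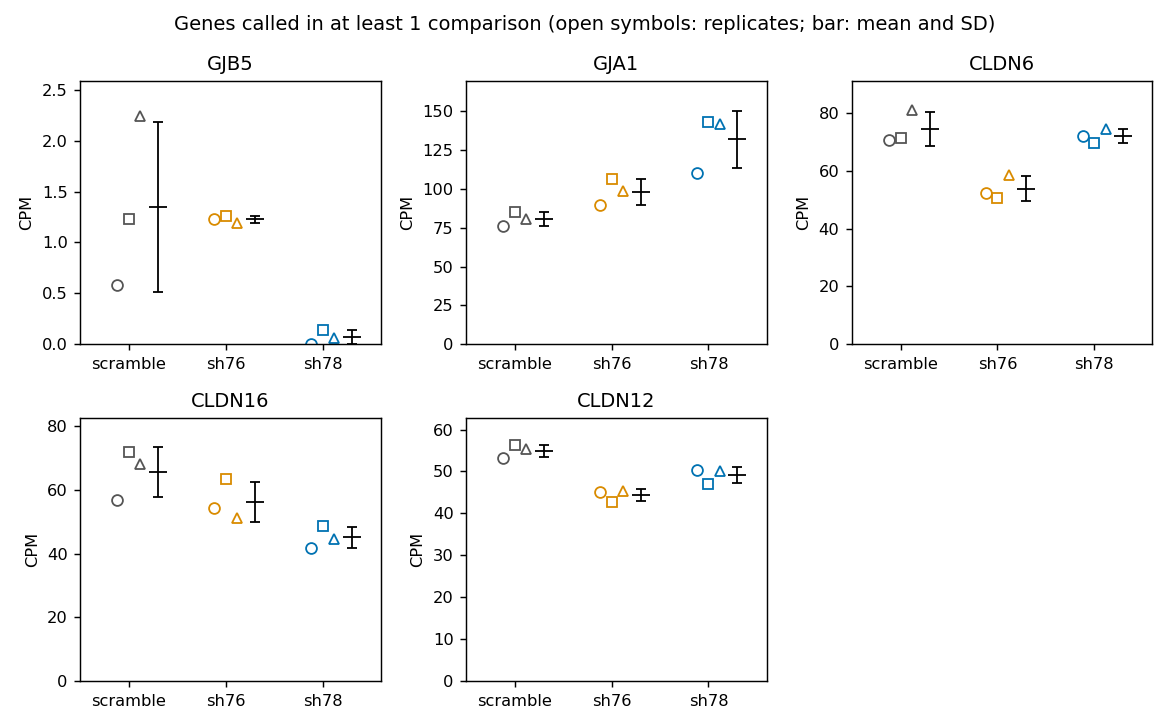
CPM (vertical, from 0) of 5 of the 6 genes called in at least 1 comparison, by group, with 1 open symbol per library shaped by replicate number and a bar for the mean and SD of 3 replicates. GJB5 is low in the 3 sh78 libraries only, GJA1 averages 80.7, 98.1 and 132 CPM with scramble, sh76 and sh78, and CLDN6 is low in the 3 sh76 libraries only.

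GJB2 and GJB6 encode connexins that form channels together in the inner ear, and they lie 28951 bases apart on chromosome 13. GJB2 (ENSG00000165474, chr13:20187463-20193010, minus strand) had 35.7, 49.9 and 55 CPM with scramble, 36.6, 71.9 and 75.9 CPM with sh76, and 43.4, 66.6 and 67.9 CPM with sh78. Replicate 1 was the lowest library in every group, so the groups overlapped. The log2 fold changes were 0.39 with sh76 and 0.33 with sh78, not called (adjusted p by edgeR 0.594 and 0.676). Over the fits that left out a library they ran from 0.21 (without sh76 replicate 3) to 0.65 (without sh76 replicate 1), and from 0.17 (without scramble replicate 1) to 0.52 (without sh78 replicate 1). With the block they were 0.37 and 0.34 and both called (adjusted p by edgeR 0.000245 and 0.00072), and all 6 same-numbered pairs were positive (0.04, 0.53 and 0.46 for sh76, then 0.28, 0.42 and 0.30 for sh78).

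GJB6 had 6.49, 6.69 and 9.13 CPM with scramble, 5.55, 8.72 and 13.1 CPM with sh76, and 6.19, 13 and 11.2 CPM with sh78. Here too replicate 1 was the lowest library in every group. Over the 3 groups, replicate 1 stood below the mean of replicates 2 and 3 by an average log2 ratio of −0.74 for GJB6 and −0.73 for GJB2. GJB6 was not called with or without the block. GJA3, the third connexin gene of that cluster, had 10, 9 and 8 counts with scramble, 14, 28 and 24 with sh76 and 2, 7 and 7 with sh78. Its difference between the hairpins had an adjusted p by edgeR of 0.0563, and the block called it (log2 fold change −1.72, adjusted p by edgeR 0.00639).

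**Figure D4:**
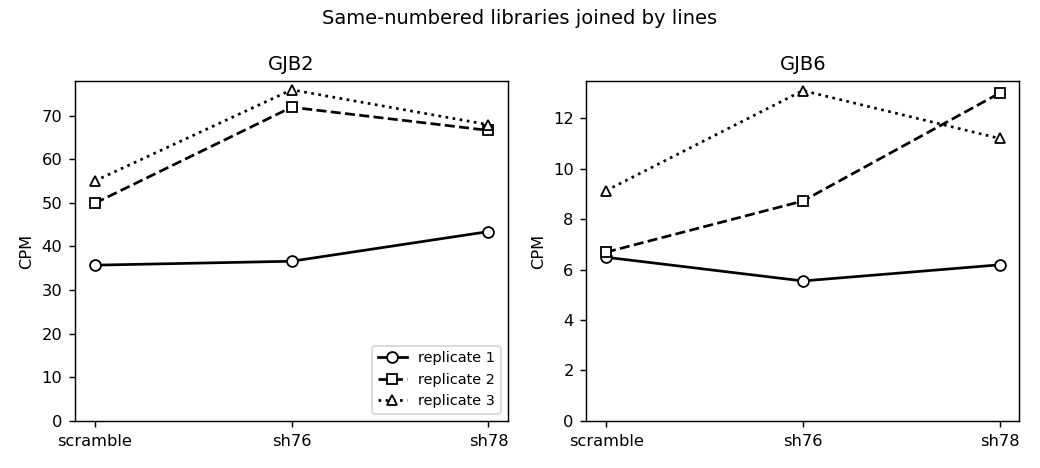
CPM (vertical, from 0) of GJB2 and GJB6 in the 3 groups, with lines joining libraries of the same replicate number. Replicate 1 is the lowest line at every group, with GJB2 at 35.7, 36.6 and 43.4 CPM, and GJB2 lies higher with each hairpin than with scramble along all 3 lines.

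GJC1 (ENSG00000182963, chr17:44798448-44830816, minus strand) had 52.2, 56.5 and 53.9 CPM with scramble, 57.2, 53.9 and 55.2 CPM with sh76, and 48.5, 52.4 and 51.4 CPM with sh78. The groups overlapped with scramble and were not called, with log2 fold changes of 0.03 (95% interval −0.12 to 0.19) and −0.09 (95% interval −0.25 to 0.06). GJB7 and GJA5 averaged 0.539 and 0.411 FPKM and were called in no comparison with or without the block.

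The make-up of the connexin mRNA was read from FPKM. GJA1 was 43.8%, 41.7% and 35.9% of the summed connexin FPKM with scramble, 46.3%, 40.6% and 36.9% with sh76, and 53.4%, 51.9% and 51.1% with sh78. All 3 sh78 shares lay above the others, and they rest on the same GJA1 values as above.

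Genes that work with these proteins were read from lists. Of 17 tight junction partners, such as occludin, the ZO proteins and the polarity proteins, 0 were called with sh76, 1 (OCLN, lower) with sh78 and 0 between the hairpins. At an unadjusted p under 0.05 edgeR gave 2, 3 and 4 (17.4%, 17.5% and 16.3% of all genes), and with the block 4, 3 and 4 were called (20.4%, 19.9% and 18.3% of all genes), shares of the list near those of all genes. OCLN, which encodes occludin, had 52.8 ± 1.92, 46.9 ± 3.13 and 42.1 ± 3.02 CPM in the scramble, sh76 and sh78 groups (SD, n = 3), a log2 fold change of −0.33 with sh78 (adjusted p by edgeR 0.0384) that lost its call in 6 of the 9 fits that left out a library: those without any of the scramble or sh78 libraries. It was also lost in both limma fits on log2 FPKM. The list's median log2 fold change was −0.08 with sh76 and −0.03 with sh78.

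Of 15 desmosome and adherens junction partners, 2 were called with sh76, 3 with sh78 and 2 between the hairpins. Of all genes tested, 3.58%, 4.41% and 3.7% were called. The unadjusted p by edgeR was under 0.05 for 4, 7 and 3 of the 15 (17.4%, 17.5% and 16.3% of all genes). The block called 6, 7 and 5 of them (20.4%, 19.9% and 18.3% of all genes). PERP, a tetraspan protein that desmosomes need, had 328 ± 12, 352 ± 17.1 and 263 ± 10.4 CPM in the scramble, sh76 and sh78 groups (SD, n = 3). PERP fell with sh78 (log2 fold change −0.32, adjusted p by edgeR 0.00726), was lower with sh78 than with sh76 (−0.42, adjusted p by edgeR 0.00148), and kept both calls in every alternative run. The nectins, immunoglobulin-like adhesion proteins, moved in different directions. NECTIN1 rose with both hairpins (0.69 and 0.74, adjusted p by edgeR 0.0323 and 0.0197), calls that were lost on log2 FPKM, without scramble replicate 2 or 3, without sh76 replicate 2 or 3 (sh76) and without sh78 replicate 2 (sh78). NECTIN2 fell with sh76 (−0.38, adjusted p by edgeR 0.00568). NECTIN4 had 26.5 ± 4.69, 41.3 ± 6.18 and 24.1 ± 5.47 CPM in the scramble, sh76 and sh78 groups (SD, n = 3). Against scramble its log2 fold change was 0.64 with sh76 (adjusted p by edgeR 0.0613, and 3.2e-09 with the block), called in 6 of 15 alternatives, and −0.14 with sh78 (adjusted p by edgeR 0.758). The difference between the hairpins was −0.78 (adjusted p by edgeR 0.0277), a call lost without sh76 replicate 1 or 3 or sh78 replicate 1 or 2. CTNNB1, which encodes beta-catenin and was named after its values were seen, fell with sh78 (−0.22, adjusted p by edgeR 0.0346). It lost that call in 6 of the 9 fits that left out a library and in both limma fits on log2 FPKM. The plaque genes DSP and JUP were not called with or without the block. DSP averaged 573, 568 and 538 CPM with scramble, sh76 and sh78, and JUP 369, 366 and 370 CPM. CDH1, which encodes E-cadherin, averaged 244, 221 and 208 CPM and was not called without the block. With the block CDH1 was called lower with both hairpins (log2 fold change −0.14 and −0.23, adjusted p by edgeR 0.014 and 8.48e-05).

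A list of 18 regulators held transcription factors that promote or repress epithelial genes, and the splicing regulators ESRP1 and ESRP2. Of the 18, 14 were tested, and 0 were called with sh76, 2 with sh78 and 2 between the hairpins. Of all genes tested, 3.58%, 4.41% and 3.7% were called. The unadjusted p by edgeR was under 0.05 for 2, 3 and 4 of the 14 (17.4%, 17.5% and 16.3% of all genes). The block called 3, 4 and 5 of them (20.4%, 19.9% and 18.3% of all genes). KLF5, a factor of epithelial growth, fell with sh78 (log2 fold change −0.38, adjusted p by edgeR 0.00618) and was lower with sh78 than with sh76 (−0.32, adjusted p by edgeR 0.0182), the latter lost without sh76 replicate 3 or sh78 replicate 2 or 3. GRHL3, a grainyhead-like factor of surface epithelium, fell with sh78 (−0.53, adjusted p by edgeR 0.0438), a call that was lost in 8 of the 9 fits that left out a library, all but that without sh76 replicate 1, and in both limma fits on log2 FPKM. TWIST1, a mesenchymal factor, was higher with sh78 than with sh76 (1.04, adjusted p by edgeR 0.0131), from 3.53 ± 1.12 to 7.34 ± 0.568 CPM (SD, n = 3). Scramble had 5.26 ± 0.635 CPM of TWIST1, between the hairpins, and the call was lost without sh76 replicate 3. Of the 7 gap junction and pannexin genes outside the set, the 3 that were tested (GJD3, PANX1 and PANX2) were not called. At an unadjusted p under 0.05 edgeR gave 0, 2 and 1 of these 3 (17.4%, 17.5% and 16.3% of all genes), and the block called 2 with sh78 (19.9% of all genes). Nothing is read from counts over 3 genes.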

How the data were processed

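Poly-A RNA of 9 OVCAR3 libraries was sequenced with a non-directional protocol, per the labels' protocols. The authors deposited a matrix of whole-number counts and FPKM values for each of 58735 genes. HISAT2 2.0.5, featureCounts 1.5.0-p3 and build hg38 are named in the submitters' processing notes, and the annotation is not given in the sources used here. All 58735 identifiers, starts and ends matched GENCODE 29 (GRCh38). The deposited FPKM equalled counts over gene length and a size of 98.09% to 102.97% of a library's total.

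The tests on the deposited counts used edgeR 4.0.16 (R 4.3.3) and all 9 libraries: filterByExpr (minimum count 10, minimum total 15; 17023 genes kept), TMM factors, robust quasi-likelihood fits with 1 coefficient per group, and Benjamini-Hochberg adjustment over all genes at 0.05. Intervals are 95%. The fit was tested on simulated data. The simulated libraries were drawn independently, without shared deviations of same-numbered replicates, so that test does not cover such deviations. Alternatives, 15 per result, were RLE size factors, DESeq2 1.42.0, no low-count filter, the replicate number as a block, limma 3.58.1 on log2(FPKM + 1) and log2(FPKM + 0.1), and leaving out each library.

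Replicate numbers were read as pairing the libraries, because deviations from group means correlated in all 9 same-numbered pairs (r 0.14 to 0.39, against −0.31 to 0.06 in 18 others). Replicates differed by more than sampling noise (chi-square per degree of freedom 5.32 to 12.2), so none was a duplicate.

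The gene set, the lists and the tests were chosen with earlier results of these data known. Values per library are given for genes called in at least 1 comparison and for the 3 genes of each family with the highest mean FPKM. From each partner list, up to 4 called genes are named by size of change. Other genes named were chosen after their values were seen. Some genes of the set are counted in the totals but are not reported here.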

Additional observations from a re-analysis of the deposited data

Results flagged for a closer look

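With 3 libraries in each group, single outlying libraries were not tested for. The results below are those in which sh78 and sh76 differed when tested against one another.

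GJB5 differed by −4.15 in log2 fold change (adjusted p by edgeR 0.00579), a fitted value that rests on 3 counts in the sh78 libraries and depends on the prior count. GJA1 was higher with sh78 by 0.43 (adjusted p by edgeR 0.0278) and CLDN6 by 0.42 (adjusted p by edgeR 0.00983), where CLDN6 was near its scramble level with sh78 and GJA1 was not. Among partner genes, PERP (−0.42), NECTIN4 (−0.78) and KLF5 (−0.32) were lower with sh78 than with sh76, and TWIST1 was higher (1.04). PERP and KLF5 were also below scramble with sh78 (−0.32 and −0.38, both called), while NECTIN4 was not called there (−0.14) and was 0.64 from scramble with sh76, called with the block.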

How the results depend on the processing

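Over the 15 alternatives, GJB5, GJA1 and CLDN16 with sh78, CLDN6 with sh76, and GJB5 between the hairpins kept their calls. Of the 23 called comparisons of single named genes (GPX3 and partner genes included), 11 were kept under every alternative and 12 were lost under at least 1. Without the low-count filter, the genes called were 1149, 1212 and 1125 (sh76, sh78, sh78 against sh76), of which 5, 6 and 8 were junction genes. With the replicate block they were 3467, 3388 and 3117, with 6, 13 and 12 junction genes. Leaving out 1 library gave 237 to 655, 418 to 810 and 273 to 780 genes, the lowest without sh76 replicate 2, scramble replicate 2 and sh76 replicate 2, and 1 to 3, 4 to 5 and 3 to 5 junction genes. Small uncalled fold changes turned sign. GJB5 with sh76 was 0.04 on log2(FPKM + 0.1). Over the fits that left out a library, log2 fold changes ran from −0.50 to 0.42 (GJB5 with sh76), −0.06 to 0.01 (CLDN7 with sh76), −0.03 to 0.07 (DSG2 with sh76), −0.08 to 0.02 (CLDN6 with sh78), −0.34 to 0.01 (NECTIN4 with sh78), and, between the hairpins, −0.30 to 0.02 (CLDN1), −0.32 to 0.13 (GJB2) and −0.10 to 0.15 (NECTIN1). The cause was not tested. Depth limits the genes with few counts, of which GJB5 is the only called one, and 24 of the 51 genes had too few counts to test.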
